A study of Mus musculus with 12 samples.

Results

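The chemokine system of the mouse retina was examined in 12 bulk RNA-seq libraries as the set of genes named Ccl, Cxcl, Ccr, Cxcr or Ackr with a number, together with Cx3cl1, Xcl1, Xcr1 and Ccrl2, and with a few receptor genes set aside. The rule found 66 gene IDs (60 symbols) among the 55487 of the gene table, 46 of ligands and 20 of receptors. Of these, 37 gene IDs (36 symbols) were detected, meaning above 0.5 FPKM (fragments scaled to transcript length and to the mapped fragments of a library) in both libraries of at least 1 group, against 16935 detected genes in all. The libraries form 6 groups of 2: wild-type C57BL/6J (WT) retinas, retinas infected with an AAV2.7m8 vector that carries pU6-shPax6-GFP (shPax6), and retinas of Jnk3-/- mice (JNK3 KO), each after intravitreal injection of 1 µL PBS or 1 µL of 40 mM NMDA (40 nmol), an agonist that overactivates ionotropic glutamate receptors. The mice that received the vector were 2 months old, while the age of the other mice and the interval from injection to collection are not given in the sources used here. Each library was made from poly(A) RNA of more than 3 pooled retinas. No retina infected with a control vector is among the 12 libraries, so infection and knockdown cannot be told apart, and the U6 promoter acts in every infected cell. The Jnk3 deletion is present in all cells of the mouse. The study calls its replicates biological, and neither it nor the labels say which animals went into which library, so the p-values below measure the spread between these pooled libraries.

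Chemokines are small secreted or membrane-tethered proteins that direct the movement of leukocytes along concentration gradients. They fall into CC, CXC, CX3C and XC classes by the spacing of their first cysteines, and they signal through G protein-coupled receptors on the cells that are drawn in. Atypical receptors bind the same ligands and remove or hold them without G protein signalling. In the retina, glia, microglia and blood vessels are known sources of chemokines after injury, and neutrophils and monocytes are known to follow them.

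Many inflammatory chemokine genes are known NF-kB, AP-1 or interferon-regulated factor targets, and the promoters of some members of this family can be read directly. The 250 bases before the start of Cxcl1 (chr5:90890995-90891244, plus strand), Cxcl2 (chr5:90903649-90903898, plus strand), Cxcl3 (chr5:90785851-90786100, plus strand) and Cxcl10 (chr5:92348890-92349139, minus strand) are shown because these 4 were the detected members whose RefSeq promoter (GRCm38.p6) held the NF-kB letters, taken as GGGA and TTCC set 2 bases apart. Each is written 5′ to 3′ on the strand of the gene, with capitals for matches on either strand to the NF-kB letters, to the AP-1 letters TGAGTCA or to the interferon-response letters, taken as GAAA repeated with 2 bases between.
Cxcl1: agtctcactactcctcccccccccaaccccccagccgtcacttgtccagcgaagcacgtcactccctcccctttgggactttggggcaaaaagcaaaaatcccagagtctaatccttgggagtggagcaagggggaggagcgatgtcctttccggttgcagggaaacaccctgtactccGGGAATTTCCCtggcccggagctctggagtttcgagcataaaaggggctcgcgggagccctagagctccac
Cxcl2: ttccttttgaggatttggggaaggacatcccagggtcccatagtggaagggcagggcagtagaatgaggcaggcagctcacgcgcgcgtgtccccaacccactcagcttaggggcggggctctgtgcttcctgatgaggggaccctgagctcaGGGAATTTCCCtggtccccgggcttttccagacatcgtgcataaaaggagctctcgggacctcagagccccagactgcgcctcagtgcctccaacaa
Cxcl3: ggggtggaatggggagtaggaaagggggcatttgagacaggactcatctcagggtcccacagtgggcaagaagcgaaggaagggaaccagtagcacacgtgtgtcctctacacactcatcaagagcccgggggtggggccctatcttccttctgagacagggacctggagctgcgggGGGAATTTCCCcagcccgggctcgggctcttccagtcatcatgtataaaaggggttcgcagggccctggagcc
Cxcl10: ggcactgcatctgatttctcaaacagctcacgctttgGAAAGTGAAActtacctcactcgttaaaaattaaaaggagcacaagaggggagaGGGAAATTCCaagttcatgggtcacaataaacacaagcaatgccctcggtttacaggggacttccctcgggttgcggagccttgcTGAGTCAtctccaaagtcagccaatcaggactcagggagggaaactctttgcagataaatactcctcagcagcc

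Cxcl1, Cxcl2 and Cxcl3 carried the same 11 letters, GGGAATTTCCC, starting 71, 97 and 73 bases before the start, each of which holds the NF-kB letters on both strands in an overlapping match. Cxcl10 held all 3 motifs, the interferon-response letters 213, the NF-kB letters 159 and the AP-1 letters 74 bases before the start. Promoters from 250 bases before to 50 after the start were at hand for 27 of the 36 detected symbols, 32 promoters in all, and none was at hand for Ccl2, Ccl4, Ccl5, Ccl7, Ccl11, Ccl24, Ccr7, Cxcl5 and Cxcl16. The NF-kB letters stood in 4 of these 32 (12.5%) and in 1.47% of all 32851 promoters. The AP-1 letters stood in 4 (12.5%, in Ccl27a, Ccl28, Cxcl9 and Cxcl10) and in 5.2% of all promoters, and the interferon-response letters in 3 (9.38%, in Ccl19, Cxcl10 and Cxcl14) and in 3.44%. Matches are letters in a window and not measured binding, and 23 of the 32 promoters held none of the 3 motifs.

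Replicate libraries differed by a median of 0.117 to 0.262 on the log2 scale over all detected genes and by 0.131 to 0.346 over the 37 members, widest in shPax6 under PBS. The table holds FPKM and no counts, so the reads behind a value are unknown. Under PBS, Pax6 had 173.48 and 177.3 FPKM in the WT libraries and 94.56 and 92.84 FPKM in the shPax6 libraries (log2 difference −0.90 ± 0.07 SE, adjusted p = 6.13e-05), whereas under NMDA it was no lower in shPax6 (0.21 ± 0.07, adjusted p = 0.0269). Mapk10, which encodes JNK3, had 42.79 and 50.72 FPKM in WT after PBS and 9.47 and 8.75 FPKM in JNK3 KO after PBS (−2.34 ± 0.36, adjusted p = 0.0222). Under NMDA the WT libraries themselves were at 8.98 and 6.00 FPKM, so this gene does not separate the genotypes there (adjusted p = 0.397). Under NMDA neither targeted gene therefore checks the labels, and shPax6 NMDA and JNK3 KO NMDA below stand for the libraries labelled so. Rod markers, which define retina, summed to 19350.77 to 34198.01 FPKM over the 12 libraries. These and all adjusted p-values below are Benjamini-Hochberg values over 16935 genes from limma on log2(FPKM + 0.1). A gene was called at an adjusted p under 0.05 and an absolute log2 difference above 1, and in bulk tissue more cells of a type and more RNA per cell cannot be told apart. Where libraries of 2 groups are said not to overlap, this describes single genes with 2 libraries a group. The share of all tested genes without overlap is not given.

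The detected members comprised 4 neutrophil-attracting CXC ligands, 2 interferon-inducible CXC ligands, 4 other CXC ligands, 11 inflammatory CC ligands, 7 other CC ligands, 2 ligands of the CX3C and XC classes, 3 CC receptors, 1 CXC receptor (Cxcr4) and 3 atypical receptors. In WT retinas under PBS the highest levels per length were those of Ackr1 (73.63 and 75.57 FPKM), Ccl27a (50.57 and 55.52 FPKM) and Cx3cl1 (36.19 and 36.53 FPKM). The level of Ackr1 is uncertain, because 25.7% of its exonic bases lie in Cadm3 on the same strand, a gene at 117.21 and 106.11 FPKM in these libraries. Of the 29 IDs that were not detected, 8 were at 0 in all libraries, and 24 symbols were detected under no ID, among them Ccr3, Ccr4, Ccr6, Ccr8, Ccr9, Ccr10, Cxcr3, Cxcr5, Cxcr6 and Xcr1, receptors of lymphocytes, eosinophils and dendritic cells. The receptors Cxcr1, Ackr2 and Ackr4 were not detected either, with at most 0.6, 0.21 and 0.65 FPKM in any library. Just outside the limit stood Cxcr6, with 0.49 FPKM in the lower library of its best group, and just inside stood Cxcl5 with 0.67 and Ccl17 with 0.73 FPKM.

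**Figure D1:**
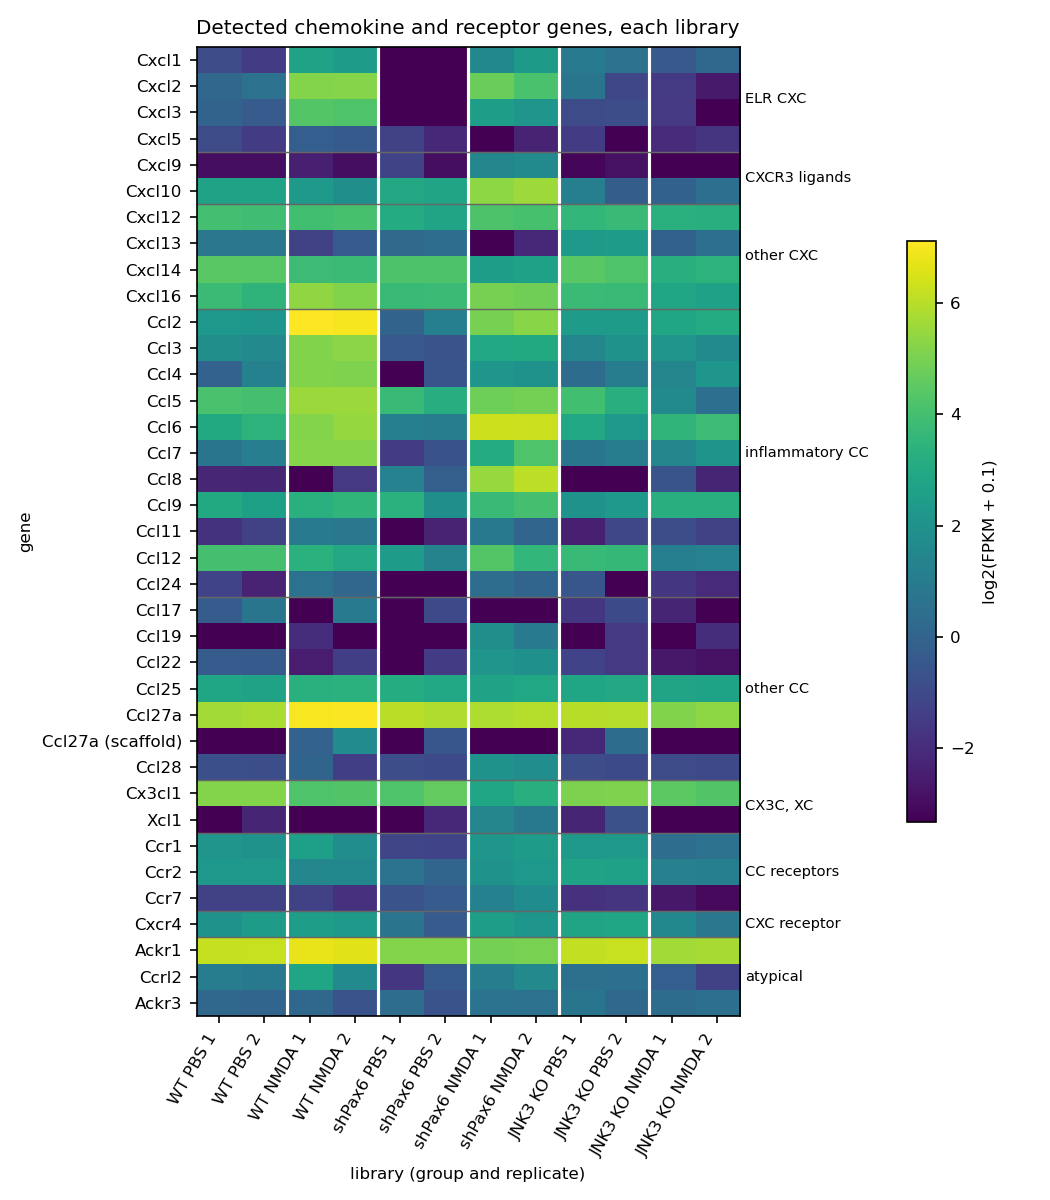
Level of each of the 37 detected genes (rows, grouped by role) in each of the 12 libraries (columns), as log2(FPKM + 0.1) by colour. The highest library of 19 genes was a WT NMDA library and that of 12 genes a shPax6 NMDA library, while no gene peaked in a JNK3 KO NMDA or a shPax6 PBS library. The same split over all tested genes is not given. The WT NMDA libraries had the highest FPKM totals, and short genes read higher in them.

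In WT retinas NMDA raised the inflammatory ligands. Of the 37 detected members 14 rose and 1 fell, where 14.2% of all tested genes rose and 21.5% fell, and the median log2 difference was 0.54 for the members and −0.13 for all genes. Of the 14, a copy of Ccl27a on an unplaced scaffold was detected in the WT NMDA group alone, so that its rise was built into its detection. The 14 that rose were ligands: 8 of 11 inflammatory CC ligands, 3 of 4 neutrophil-attracting CXC ligands, Cxcl16 and both Ccl27a IDs. None of the 7 receptors was called higher. Ccrl2 was at 2.05 and 1.75 FPKM under PBS and at 6.92 and 2.97 FPKM under NMDA. Ccr2 was at 4.61 and 4.74 and at 2.77 and 2.84 FPKM, and neither gene was called. The summed FPKM of the inflammatory CC and neutrophil-attracting CXC ligands was 63.27 and 64.39 under PBS and 414.16 and 410.23 under NMDA.

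Ccl2, the main attractant of monocytes, was listed at 4.61 and 4.39 FPKM under PBS and at 138.26 and 126.01 FPKM under NMDA, a log2 difference of 4.84 ± 0.31 (adjusted p = 1.49e-06). Its neighbour Ccl7, which binds the same receptor, was at 1.54 and 2.10 FPKM under PBS and at 37.06 and 37.14 FPKM under NMDA (4.29 ± 0.41, adjusted p = 1.8e-05). For both genes the NMDA libraries lay far above the PBS libraries, with no overlap. Ccl3 and Ccl4, which attract monocytes and T cells, were at 2.93 to 3.48 and 0.86 to 2.29 FPKM under PBS and at 34.83 to 39.05 and 34.33 to 34.82 FPKM under NMDA, which gave log2 differences of 3.49 ± 0.24 and 4.52 ± 0.78 (adjusted p = 2.32e-06 and 0.000782). Ccl6, a ligand of Ccr1, was at 7.99 and 10.60 FPKM under PBS and at 36.17 and 43.67 FPKM under NMDA (2.10 ± 0.23, adjusted p = 3.87e-05), again without overlap.

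The neutrophil-attracting CXC ligands moved together. Cxcl2 was at 0.98 and 1.37 FPKM under PBS and at 36.01 and 36.87 FPKM under NMDA (log2 difference 4.86 ± 0.57, adjusted p = 6.7e-05). Cxcl3 was at 0.90 and 0.69 FPKM and rose to 19.60 and 18.61 FPKM (4.43 ± 0.50, adjusted p = 5.6e-05). Cxcl1 was at 0.43 and 0.25 FPKM and rose to 6.41 and 5.33 FPKM (3.79 ± 0.39, adjusted p = 3e-05). These are the 3 genes whose promoters share the 11 letters printed above. Cxcl10, the other promoter with the NF-kB letters, was at 6.28 and 6.27 FPKM under PBS and at 4.70 and 3.53 FPKM under NMDA and was not called. Ccl3 and Ccl6 rose with none of the 3 motifs in their promoters. The part of these letters in the levels was not tested. Cxcl5, of the same class and with no promoter at hand, was at 0.42 and 0.25 FPKM under PBS and at 0.77 and 0.67 FPKM under NMDA (0.94 ± 0.69, adjusted p = 0.266). Neutrophil markers moved in the same direction: 6 of 9 detected markers rose and none fell, and their summed FPKM was 223.65 and 247.17 under PBS and 1971.42 and 2013.58 under NMDA. The defining marker Ly6g was at 0.33 and 0.10 FPKM under PBS and at 3.74 and 2.55 FPKM under NMDA, while 5 of 5 erythrocyte markers rose, with sums of 97.28 and 107.00 FPKM and of 613.44 and 649.96 FPKM. The part of these cells in the ligand levels was not tested.

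Other WT changes were smaller. Ccl5, which attracts T cells and monocytes, was at 17.28 and 16.48 FPKM under PBS and at 47.17 and 46.37 FPKM under NMDA (1.47 ± 0.35, adjusted p = 0.00563), and Cxcl16, a transmembrane ligand of Cxcr6, was at 13.80 and 11.09 FPKM and at 41.54 and 34.58 FPKM (1.61 ± 0.13, adjusted p = 7.09e-06). Ccl11, an eosinophil attractant, was at 0.19 and 0.30 FPKM and at 1.94 and 1.70 FPKM (2.49 ± 0.57, adjusted p = 0.00418). Ccl24, which also attracts eosinophils, was at 0.33 and 0.10 FPKM and at 1.43 and 0.98 FPKM (2.13 ± 0.82, adjusted p = 0.0476), a call that was lost without any of 10 single libraries (adjusted p 0.0581 to 0.23). Ccl27a, a chemokine best known from skin, was at 50.57 and 55.52 FPKM and at 130.18 and 131.14 FPKM (1.3 ± 0.09, adjusted p = 2.15e-06). Reads of Ccl27a can be shared with near-identical copies, and the copy on an unplaced scaffold was listed at 0 in both PBS libraries and at 0.86 and 3.15 FPKM under NMDA (adjusted p = 0.00793, and 0.0651 without the second NMDA library).

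The member that fell was Cxcl13, the B cell attractant. It was at 1.65 and 1.67 FPKM under PBS and at 0.31 and 0.71 FPKM under NMDA (−1.61 ± 0.48, adjusted p = 0.0159), a call lost without either PBS library or without the first NMDA library (adjusted p 0.0648 to 0.11). The receptors Ccr1, of myeloid cells, and Cxcr4, the receptor of Cxcl12, had log2 differences of 0.14 ± 0.28 and 0.16 ± 0.36 (adjusted p = 0.689 and 0.727), with intervals of the difference from −0.49 to 0.77 and from −0.65 to 0.98. Cx3cl1, a membrane-tethered chemokine made by neurons, was at 36.19 and 36.53 FPKM and at 18.74 and 19.22 FPKM (−0.93 ± 0.15, adjusted p = 0.000503), which missed the limit on size.

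The FPKM totals of the WT NMDA libraries were 805627.2 and 820180.2, against 541210.3 to 576921.5 in the other 10 libraries, and short genes read higher in them. Detected genes under 1 kb had a median log2 difference of 1.10 in the WT response and 40.1% of them rose, those of 1 to 2 kb had a median of 0.51 with 21.6% rising, and those of 2 to 4 kb had −0.34 with 3.9% rising. The members had a median spliced length of 1088 bases and the ligands of 1050, against 2222 for all detected genes. Within these classes 9 of 14 members under 1 kb rose, 5 of 15 of 1 to 2 kb and 0 of 8 of 2 to 4 kb. On TPM the median of all genes in the WT response shifted by −0.69 and that of the members stood at 0.036, with 11 members called higher and 7 lower, and with 75th-percentile scaling the median of all genes shifted by −0.20. After correction for gene length 10 members rose and 3 fell. Ccl5 and Ccl27a lost their calls on TPM and after correction for gene length, whereas Ccl2, Ccl3, Ccl4, Ccl6, Ccl7, Ccl11, Cxcl1, Cxcl2, Cxcl3 and Cxcl16 kept theirs under every alternative run.

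**Figure D2:**
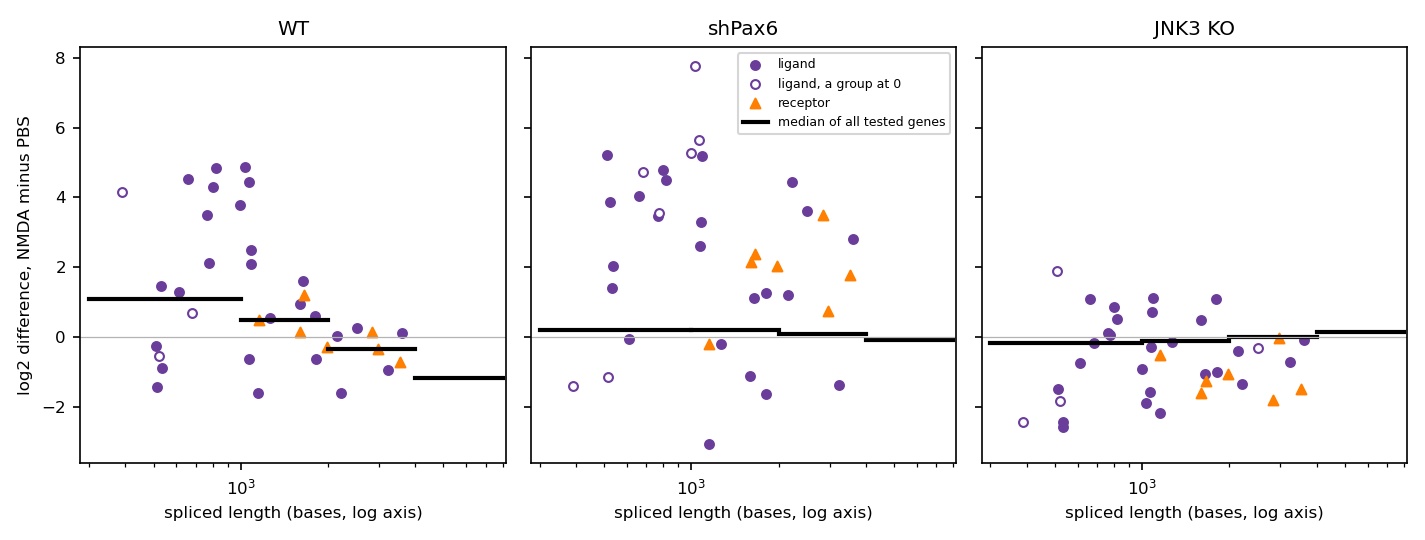
Log2 difference of NMDA minus PBS (vertical axis) against spliced gene length in bases (horizontal log axis) for the detected ligands and receptors in WT, shPax6 and JNK3 KO. Black lines give the median of all tested genes in 4 length classes, which fell from 1.10 for the shortest class to −1.17 for the longest in WT and stayed between −0.16 and 0.20 in shPax6 and JNK3 KO.

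In shPax6 retinas NMDA raised more of the family above its PBS level, receptors included. For Ccr1, Ccr2, Cxcr4 and Cxcl12 that PBS level was itself called lower than in WT. Of the 37 detected members 27 rose and 3 fell, where 9.05% of all tested genes rose and 5.27% fell, and the median log2 difference was 2.38 for the members and 0.10 for all genes. Of the 27, Ccl19, Ccl28, Cxcl9 and Xcl1 were detected in the shPax6 NMDA group alone, so that their rise was built into their detection, and of the other 33 members 23 rose and 3 fell. All 11 inflammatory CC ligands rose, as did 3 of 4 neutrophil-attracting CXC ligands, both interferon-inducible CXC ligands, all 3 CC receptors and Cxcr4. The calls higher in WT and in shPax6 shared 12 members, 12 of the 14 in WT and 12 of the 27 in shPax6. The share of all tested genes that rose in both is not given, so this overlap is not read as particular to the family. The summed FPKM of the inflammatory CC and neutrophil-attracting CXC ligands was 35.65 and 21.85 under PBS and 274.62 and 300.68 under NMDA, and that of the CC receptors 2.34 and 1.97 under PBS and 10.67 and 13.26 under NMDA. With the spread taken from the shPax6 libraries alone, 16 members rose and 1 fell.

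Of the neutrophil-attracting ligands, Cxcl1, Cxcl2 and Cxcl3 were listed at 0 in both shPax6 PBS libraries. Under NMDA, Cxcl2 was at 26.85 and 17.43 FPKM (adjusted p = 1.54e-05). Cxcl3 was at 5.49 and 4.30 FPKM (adjusted p = 5.21e-05), and Cxcl1 at 2.83 and 5.02 FPKM (adjusted p = 1.68e-05). No fold is given against a group at 0.

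Among CC ligands, Ccl2 was at 0.91 and 2.20 FPKM under PBS and at 31.40 and 37.63 FPKM under NMDA (4.50 ± 0.31, adjusted p = 1.06e-05). Ccl6 was at 2.19 and 1.98 FPKM and at 79.46 and 78.45 FPKM (5.18 ± 0.23, adjusted p = 9.91e-07), which made it the highest inflammatory CC ligand of this group. Ccl8, a monocyte and T cell attractant, was at 2.35 and 0.79 FPKM and at 44.89 and 66.41 FPKM (5.21 ± 0.74, adjusted p = 0.000819). Ccl8 stayed at or below 0.56 FPKM in every WT and JNK3 KO library, so the shPax6 NMDA libraries stood alone for this gene. Ccl7 was at 0.25 and 0.51 FPKM and at 8.53 and 18.75 FPKM (4.79 ± 0.41, adjusted p = 4.02e-05), Ccl3 at 0.65 and 0.54 and at 7.28 and 7.96 FPKM (3.48 ± 0.24, adjusted p = 1.1e-05) and Ccl4 at 0 and 0.56 and at 4.34 and 3.90 FPKM (4.04 ± 0.78, adjusted p = 0.00422). Ccl12, a mouse ligand of Ccr2, was at 5.42 and 2.46 FPKM and at 19.83 and 12.03 FPKM (2.05 ± 0.34, adjusted p = 0.00191).

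Cxcl9, Cxcl10, Ccl19, Ccl22, Ccl28 and Xcl1 rose as well, while Ccl17, Ccl25 and both Ccl27a IDs were not called. Cxcl10, an interferon-inducible attractant of T cells, was at 7.68 and 6.66 FPKM under PBS and at 40.65 and 47.66 FPKM under NMDA (2.61 ± 0.40, adjusted p = 0.00129). Cxcl9, of the same class, was at 0.34 and 0.03 FPKM and at 2.64 and 3.02 FPKM (3.61 ± 0.62, adjusted p = 0.00226). For Cxcl10 both NMDA libraries exceeded every other library of the series. Cxcl9, and Xcl1, Ccl28 and Ccl19 below, were detected in this group alone, so that their rise was built into their detection. Ccl22, a ligand of Ccr4 made by dendritic cells and macrophages, was at 0 and 0.25 FPKM and at 4.30 and 3.68 FPKM (4.45 ± 0.62, adjusted p = 0.000736), Xcl1, made by NK and T cells, at 0 and 0.13 and at 2.59 and 1.75 FPKM (3.88 ± 0.69, adjusted p = 0.00275) and Ccl28, a mucosal chemokine, at 0.45 and 0.41 and at 3.91 and 3.33 FPKM (2.81 ± 0.46, adjusted p = 0.00174). Ccl19, a ligand of Ccr7, was listed at 0 in both PBS libraries and at 3.44 and 1.89 FPKM under NMDA (adjusted p = 0.00184). Xcl1 shares 18.7% of its exonic bases with a gene on the opposite strand, and Ccl19 has near-identical copies, so that reads may be split in both. Lymphocyte and NK markers were low, with 3 of 5 detected ones rising and a sum of 2.84 and 0.95 FPKM under PBS and of 13.19 and 11.38 FPKM under NMDA, and their part was not tested.

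Of the 7 detected receptors 5 rose in shPax6 and none fell, and the atypical receptors Ackr1 and Ackr3 were not called (−0.19 ± 0.07 and 0.75 ± 0.44, adjusted p = 0.0627 and 0.235). Ccr1 was at 0.35 and 0.33 FPKM under PBS and at 4.32 and 5.38 FPKM under NMDA (3.48 ± 0.28, adjusted p = 2.51e-05). Ccr2, the receptor of inflammatory monocytes, was at 1.46 and 0.95 FPKM and at 4.03 and 4.58 FPKM (1.78 ± 0.22, adjusted p = 0.000362). For both genes the NMDA libraries lay above both PBS libraries. Ccr7, the receptor of mature dendritic cells and naive T cells, was at 0.53 and 0.69 FPKM and at 2.32 and 3.30 FPKM (2.02 ± 0.41, adjusted p = 0.00535), and Cxcr4 at 1.5 and 0.69 FPKM and at 5.59 and 4.34 FPKM (2.16 ± 0.36, adjusted p = 0.00196). Beside them, 9 of 10 monocyte and macrophage markers rose, with sums of 47.56 and 44.86 FPKM under PBS and of 377.40 and 385.24 FPKM under NMDA, and neutrophil markers summed to 12.21 and 8.12 FPKM and to 68.39 and 80.26 FPKM, with Ly6g at 0 in all 4 libraries. The part of these cells in the receptor levels was not tested.

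Ccrl2, an atypical receptor, was at 0.21 and 0.68 FPKM under PBS and at 2.06 and 2.94 FPKM under NMDA (2.38 ± 0.56, adjusted p = 0.0115). Cxcl12, the ligand of Cxcr4, was at 8.48 and 6.65 FPKM and at 18.36 and 16.83 FPKM (1.22 ± 0.13, adjusted p = 0.000167). Cxcl16 was at 13.23 and 13.83 FPKM and at 31.12 and 28.41 FPKM (1.13 ± 0.13, adjusted p = 0.000267), and Ccl11 at 0 and 0.10 FPKM and at 1.74 and 0.96 FPKM (3.30 ± 0.57, adjusted p = 0.00232). The calls of Ccl5, Ccl9 and Ccl24 depended on single libraries. Ccl5 was at 13.51 and 8.97 FPKM and at 27.91 and 30.41 FPKM (1.40 ± 0.35, adjusted p = 0.0158), and its call was lost without the second PBS library or either NMDA library (adjusted p 0.0651 to 0.0912). Ccl9, a ligand of Ccr1, was at 10.06 and 3.61 FPKM and at 12.84 and 16.38 FPKM (1.25 ± 0.39, adjusted p = 0.0382), and only leaving out the first PBS library kept its call (adjusted p 0.0543 to 0.159 without any other). Ccl24 was listed at 0 under PBS and at 1.23 and 0.95 FPKM under NMDA (adjusted p = 0.0101, and 0.0506 without the first NMDA library), and the call of Ccrl2 was lost without the first PBS or the second NMDA library (adjusted p 0.062 to 0.0711).

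The members that fell were Cxcl13, Cxcl14 and Cx3cl1. Cxcl13 was at 1.13 and 1.22 FPKM under PBS and at 0 and 0.13 FPKM under NMDA (−3.07 ± 0.48, adjusted p = 0.00133). Cxcl14, a homeostatic chemokine, was at 18.46 and 18.27 FPKM and at 5.57 and 6.09 FPKM (−1.64 ± 0.11, adjusted p = 9.75e-06), and Cx3cl1 at 18.89 and 23.91 FPKM and at 7.07 and 9.36 FPKM (−1.37 ± 0.15, adjusted p = 0.000173). Retinal ganglion cell markers fell beside them in 5 of 6 cases, with sums of 140.90 and 137.03 FPKM under PBS and of 41.99 and 36.18 FPKM under NMDA, and their part was not tested.

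**Figure D3:**
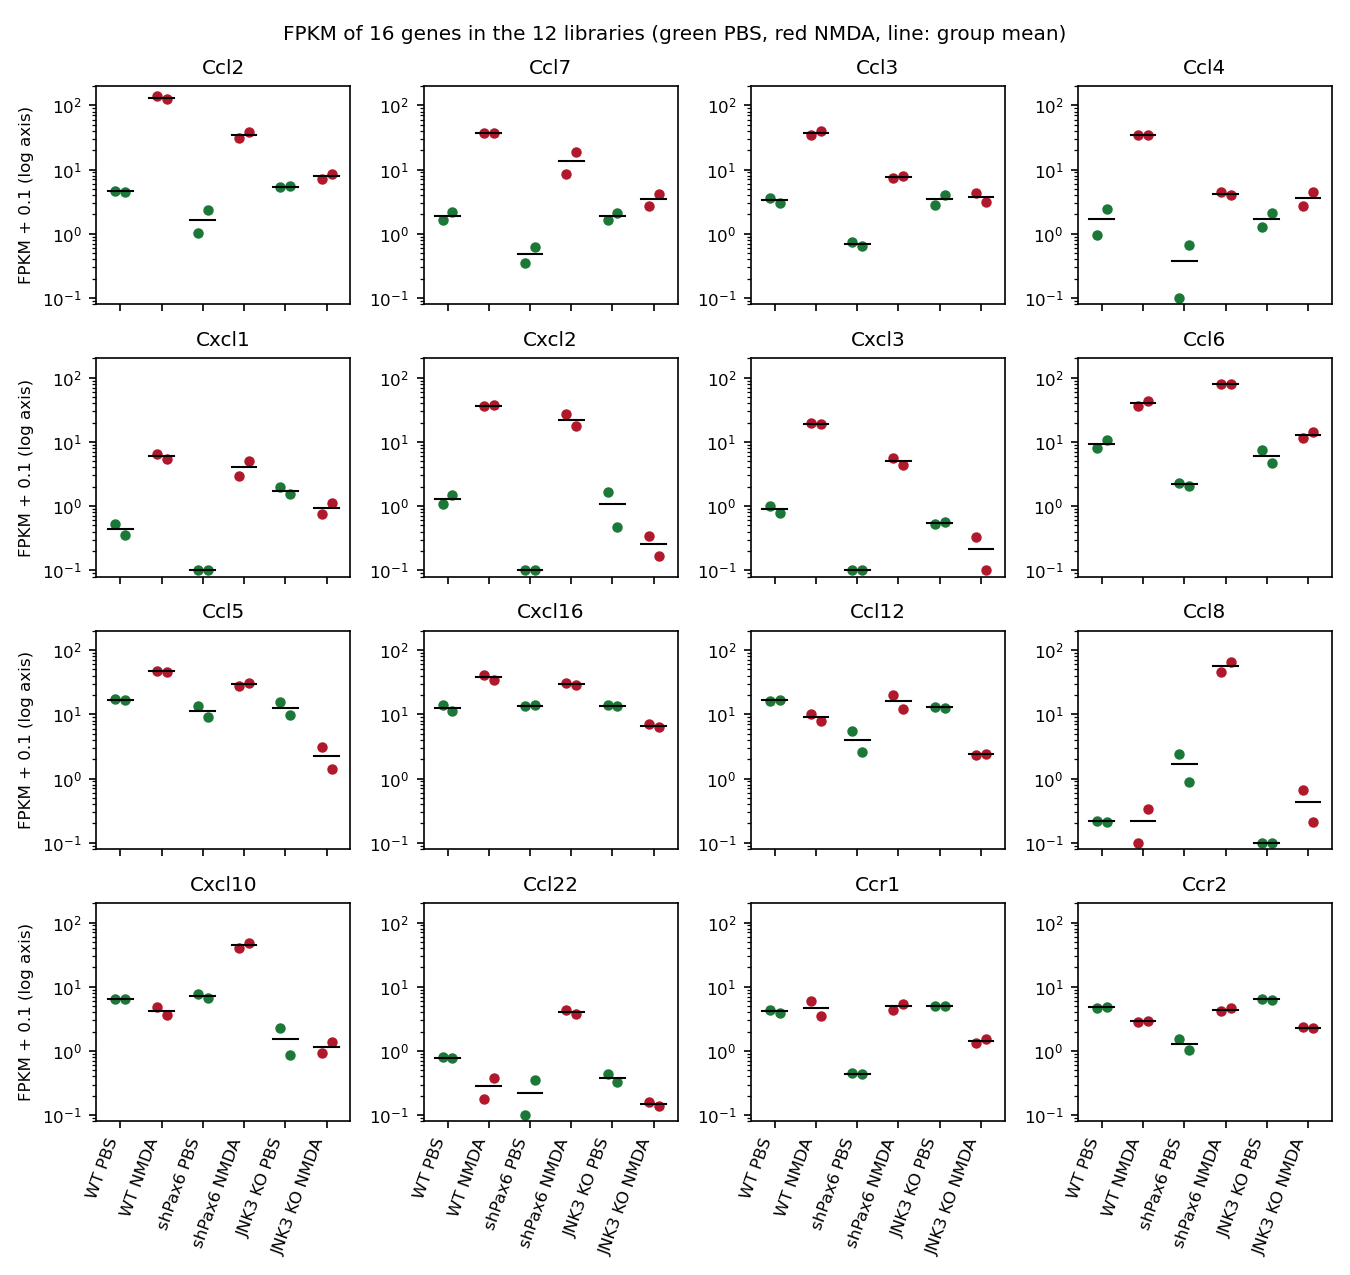
FPKM + 0.1 (vertical log axis) of 16 genes in the 2 libraries of each group, with PBS in green, NMDA in red and a line at the group mean. Ccl2, Ccl7, Ccl3, Ccl4, Cxcl1, Cxcl2 and Cxcl3 were highest in the WT NMDA libraries, Ccl6, Ccl8, Cxcl10 and Ccl22 in the shPax6 NMDA libraries, and in JNK3 KO the NMDA values of Ccl5, Cxcl16, Ccl12, Ccr1 and Ccr2 lay below the PBS values.

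In JNK3 KO retinas the response was small and mostly downward. Of the 37 detected members 1 rose and 7 fell, where 0.785% of all tested genes rose and 1.91% fell, and the median log2 difference was −0.70 for the members and −0.02 for all genes. At an unadjusted p under 0.05, 3 members rose and 12 fell, where 5.03% of all tested genes were called in either direction. The summed FPKM of the inflammatory CC and neutrophil-attracting CXC ligands was 54.93 and 47.39 under PBS and 45.21 and 48.70 under NMDA. Neutrophil markers fell in 5 of 9 cases, with sums of 165.09 and 176.66 FPKM under PBS and of 17.20 and 17.98 FPKM under NMDA, and their part in the levels below was not tested.

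Ccl6 was the member that rose, from 7.33 and 4.58 FPKM to 11.41 and 14.03 FPKM (1.11 ± 0.23, adjusted p = 0.016), a call lost without the second PBS library or either NMDA library (adjusted p 0.0573 to 0.133). Ccl2, at 5.23 and 5.38 FPKM under PBS and at 7.03 and 8.41 FPKM under NMDA, had a log2 difference of 0.53 ± 0.31 (adjusted p = 0.351, interval −0.17 to 1.23). Cxcl2 was at 1.56 and 0.37 FPKM and at 0.24 and 0.07 FPKM (−1.88 ± 0.57, adjusted p = 0.0715), Cxcl3 at 0.42 and 0.46 and at 0.23 and 0 FPKM (−1.57 ± 0.50, adjusted p = 0.0875), and Cxcl1 at 1.85 and 1.43 and at 0.66 and 1.02 FPKM (−0.91 ± 0.39, adjusted p = 0.199). For these 3 genes both NMDA libraries lay below both PBS libraries and no difference was called.

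Among the members that fell, Ccl5 was at 15.23 and 9.57 FPKM under PBS and at 2.97 and 1.29 FPKM under NMDA (−2.56 ± 0.35, adjusted p = 0.00267). Ccl12 was at 13.05 and 12.43 FPKM and at 2.20 and 2.34 FPKM (−2.44 ± 0.34, adjusted p = 0.00282), and Cxcl16 at 13.67 and 13.47 FPKM and at 6.86 and 6.16 FPKM (−1.05 ± 0.13, adjusted p = 0.00168). Ccr1 was at 4.86 and 4.92 FPKM and at 1.24 and 1.42 FPKM (−1.81 ± 0.28, adjusted p = 0.00453), and Ccr2 at 6.35 and 6.16 FPKM and at 2.23 and 2.14 FPKM (−1.48 ± 0.22, adjusted p = 0.00399). For Ccl5, Ccl12, Cxcl16, Ccr1 and Ccr2 both NMDA libraries lay below both PBS libraries. Cxcl16 was under the limit on size without the second NMDA library (−0.97). Cxcr4, at 6.75 and 7.07 and at 2.85 and 1.69 FPKM (−1.61 ± 0.36, adjusted p = 0.024), and Cxcl13, at 4.78 and 5.38 and at 0.84 and 1.3 FPKM (−2.17 ± 0.48, adjusted p = 0.022), lost their calls without any single JNK3 KO library, with adjusted p-values of 0.0502 to 0.182 and of 0.0827 to 0.155. Cxcl13 was the 1 member called lower after NMDA in all 3 backgrounds, and Ccl6 the 1 called higher in all 3. The share of all tested genes called in all 3 is not given. Cxcl14 and Cx3cl1 were lower after NMDA in all 3 too, but called in shPax6 alone. In JNK3 KO, Cxcl14 was at 21.81 and 18.63 and at 9.49 and 10.76 FPKM, and Cx3cl1 at 33.28 and 34.16 and at 22.2 and 19.24 FPKM. In WT, Cxcl14 was at 21.42 and 21.33 and at 14.15 and 13.64 FPKM.

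**Figure D4:**
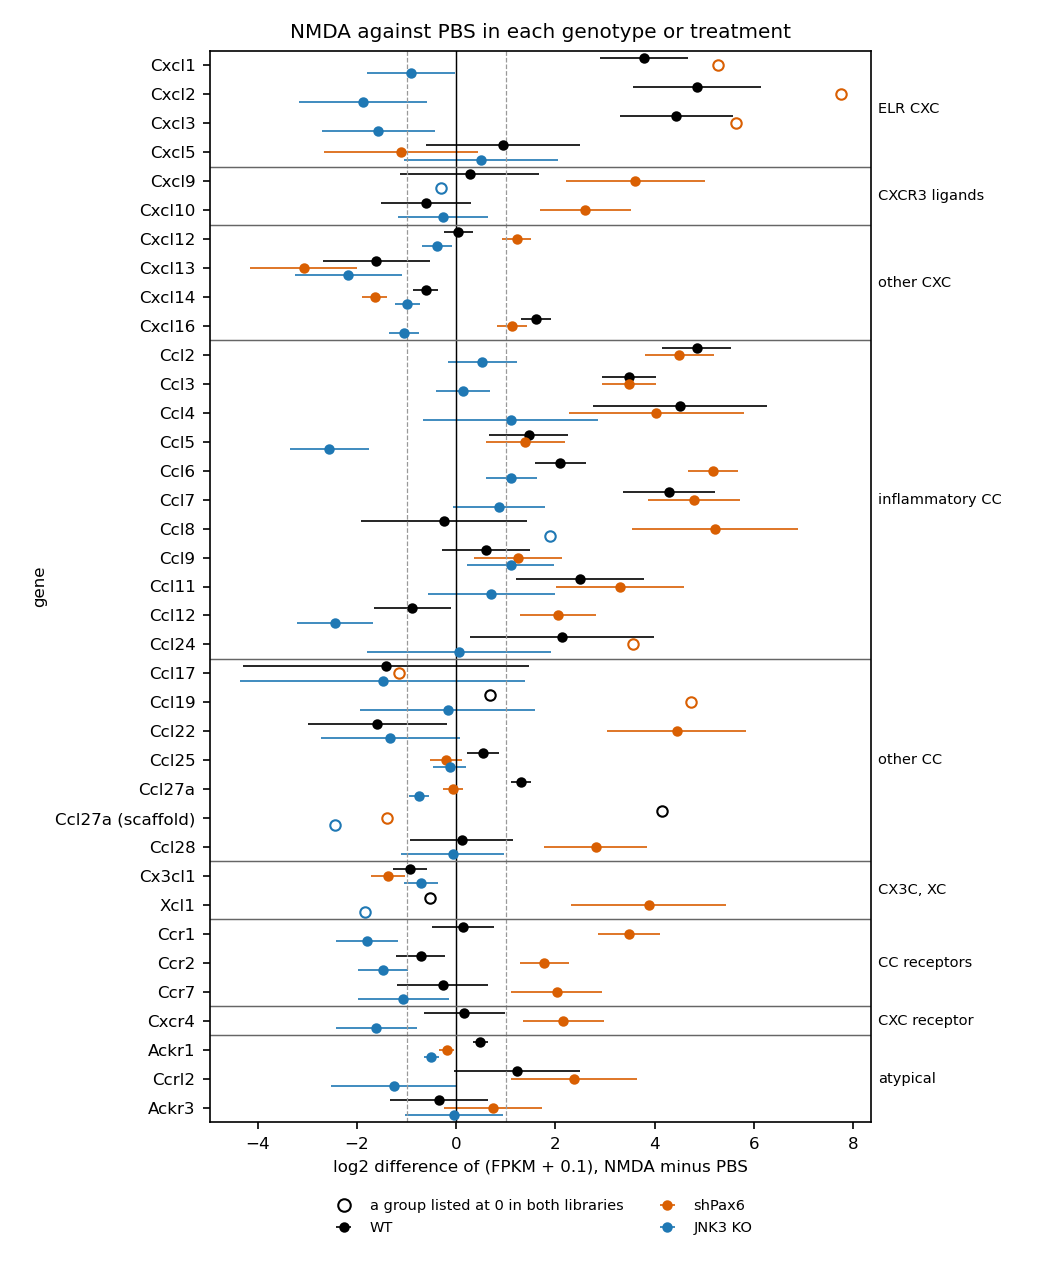
Log2 difference of NMDA minus PBS (horizontal axis, on log2(FPKM + 0.1)) for the 37 detected genes in WT (black), shPax6 (orange) and JNK3 KO (blue), with 95% intervals from limma and dashed lines at the limit of 1 on size. Open circles mark genes with a group listed at 0, for which no size is read, and Ccr1, Ccr2, Cxcr4 and Ccl12 show shPax6 to the right of 0 and JNK3 KO to the left.

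The responses themselves were then compared. Between WT and JNK3 KO, 15 members had a higher log2 response in WT and 0 in JNK3 KO, where 15.4% and 20.2% of all tested genes did. Leaving aside the 3 members detected in 1 compared group alone, the scaffold copy of Ccl27a among them, these were 14 and 0 of 34. The 15 were Ccl2, Ccl3, Ccl4, Ccl5, Ccl7, Ccl12, both Ccl27a IDs, Cxcl1, Cxcl2, Cxcl3, Cxcl16, Ccr1, Cxcr4 and Ccrl2. The difference of the log2 responses was 6.74 ± 0.80 for Cxcl2 (adjusted p = 0.000113), 4.32 ± 0.44 for Ccl2 (adjusted p = 4.25e-05) and 4.02 ± 0.50 for Ccl5 (adjusted p = 0.000143). The calls of Ccl4, Ccl12, Ccrl2 and Cxcr4 were lost without any of 5, 7, 6 and 3 single libraries of the 8 in this contrast (adjusted p 0.0511 to 0.102). On TPM 11 members had the higher log2 response in WT and 1 in JNK3 KO.

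Between shPax6 and JNK3 KO, 22 members had the higher log2 response in shPax6 and 0 in JNK3 KO, where 6.83% and 2.28% of all tested genes did. Leaving aside the 4 members detected in the shPax6 NMDA group alone, these were 18 of 33. They included Ccr1, Ccr2 and Cxcr4, which rose in shPax6 and fell in JNK3 KO, and Ccr7, with differences of 5.29 ± 0.39 for Ccr1 (adjusted p = 4.73e-05), 3.26 ± 0.31 for Ccr2 (adjusted p = 0.000199), 3.77 ± 0.51 for Cxcr4 (adjusted p = 0.00137) and 3.09 ± 0.57 for Ccr7 (adjusted p = 0.00698). The calls of Ccrl2, Cxcl9, Ccl19 and Ccl28 were lost without 1 to 3 of the JNK3 KO libraries (adjusted p 0.0504 to 0.0626). Between WT and shPax6, 15 members had the higher log2 response in shPax6 and 3 in WT, where 22% and 10.3% of all tested genes did. Leaving aside the 7 members detected in 1 group alone, these were 11 and 2 of 30. The 3 were Cxcl14 and both Ccl27a IDs. Of those with the higher response in shPax6, Ccr1, Ccr2, Cxcr4, Ccl6, Ccl12, Cxcl2 and Cxcl12 started from PBS levels called lower than in WT. Ccl8 started from a PBS level called higher. Among genes without a group at 0, WT minus shPax6 was furthest from 0 for Ccl22 (−6.04 ± 0.88, adjusted p = 0.000488) and Ccl8 (−5.45 ± 1.05, adjusted p = 0.00232). Ccl2, Ccl3, Ccl4, Ccl5 and Ccl7 were not called, with intervals of the difference of −0.76 to 0.78 for Ccl3 at the narrowest and −2.0 to 2.96 for Ccl4 at the widest. The calls of Cxcl14 (1.02), Cxcl2 and the scaffold copy of Ccl27a were lost without single libraries, the first WT or shPax6 NMDA library for Cxcl14 (0.96 to 1.00), the second WT PBS or first shPax6 NMDA library for Cxcl2 (adjusted p 0.0523 to 0.0577) and the second WT NMDA library for the copy (0.0531). The calls of Cxcl2 and Cxcl14 were also lost with pseudocounts of 1 and 0.5. That of Cxcl2 was lost with no filter too, and that of Cxcl14 on TPM and after the length correction. Under NMDA, Cxcl2 itself was at 26.85 and 17.43 FPKM in shPax6 and at 36.01 and 36.87 FPKM in WT. The split was 1 to 17 on TPM and 5 to 10 with quantile normalization. Each background enters 2 of these 3 comparisons, so they are not independent of each other.

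Under PBS, shPax6 retinas had lower chemokine and receptor levels than WT retinas. Of the 37 detected members 14 were lower and 1 was higher, where 4.05% of all tested genes were lower and 0.579% higher, and the median log2 difference was −1.04 for the members and −0.08 for all genes. The lower members were 3 neutrophil-attracting CXC ligands, 5 inflammatory CC ligands, Cxcl12, Ccr1, Ccr2, Cxcr4, Ccrl2 and Ackr1. Ccr1 showed the largest drop of a gene measured in both groups, with 4.24 and 3.85 FPKM in WT and 0.35 and 0.33 FPKM in shPax6 (−3.24 ± 0.28, adjusted p = 0.000108).

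Among the ligands, Ccl3 was at 3.48 and 2.93 FPKM in WT against 0.65 and 0.54 FPKM in shPax6 (−2.25 ± 0.24, adjusted p = 0.000366), Ccl12 at 16.24 and 16.47 and at 5.42 and 2.46 FPKM (−2.13 ± 0.34, adjusted p = 0.00317) and Ccl6 at 7.99 and 10.60 and at 2.19 and 1.98 FPKM (−2.09 ± 0.23, adjusted p = 0.000386). The 3 CXC ligands Cxcl1, Cxcl2 and Cxcl3 were at 0.25 to 1.37 FPKM in WT and listed at 0 in shPax6 (adjusted p = 0.00692, 0.00279 and 0.00323, and 0.0639 for Cxcl1 without the first WT library). These members did not overlap between the groups. Ccr2 was at 4.61 and 4.74 FPKM and at 1.46 and 0.95 FPKM (−1.90 ± 0.22, adjusted p = 0.000564), and Cxcr4 at 4.06 and 5.40 and at 1.5 and 0.69 FPKM (−2.09 ± 0.36, adjusted p = 0.00465). Cxcl12 was at 15.88 and 15.14 and at 8.48 and 6.65 FPKM (−1.04 ± 0.13, adjusted p = 0.00093, and −0.86 without the second shPax6 library). The calls of Ccl2 (−1.59 ± 0.31, adjusted p = 0.00853), Ccl7 (−2.04 ± 0.41, adjusted p = 0.0101) and Ccrl2 (−2.02 ± 0.56, adjusted p = 0.0397) were each lost without some single libraries: 3, 2 and 7 of the 12, WT and shPax6 libraries under PBS among them, with adjusted p-values up to 0.0592, 0.0806 and 0.203. Ccl8 went the other way, at 0.12 and 0.11 FPKM in WT against 2.35 and 0.79 FPKM in shPax6 (2.78 ± 0.74, adjusted p = 0.0336), a call lost without any of 5 single libraries (adjusted p 0.0529 to 0.183).

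Leukocyte markers moved with these members. Under PBS, 6 of 9 neutrophil markers and 7 of 10 monocyte and macrophage markers were lower in shPax6 than in WT, 1 of the latter (Ms4a7) was higher, and the sum of the neutrophil markers was 12.21 and 8.12 FPKM against 223.65 and 247.17 FPKM. Erythrocyte markers were lower in 4 of 5 cases, with sums of 50.31 and 28.68 FPKM against 97.28 and 107.00 FPKM. Microglia markers summed to 67.31 and 54.31 FPKM in shPax6 and to 36.70 and 42.04 FPKM in WT, with 1 of 8 higher and 1 lower. Retinal ganglion cell markers were lower in 4 of 6 cases, with sums of 140.90 and 137.03 FPKM against 462.8 and 480.41 FPKM. The part of these cells in the lower levels was not tested, and infection and knockdown cannot be told apart. With the spread taken from these 4 libraries alone 7 members were lower and 0 higher.

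**Figure D5:**
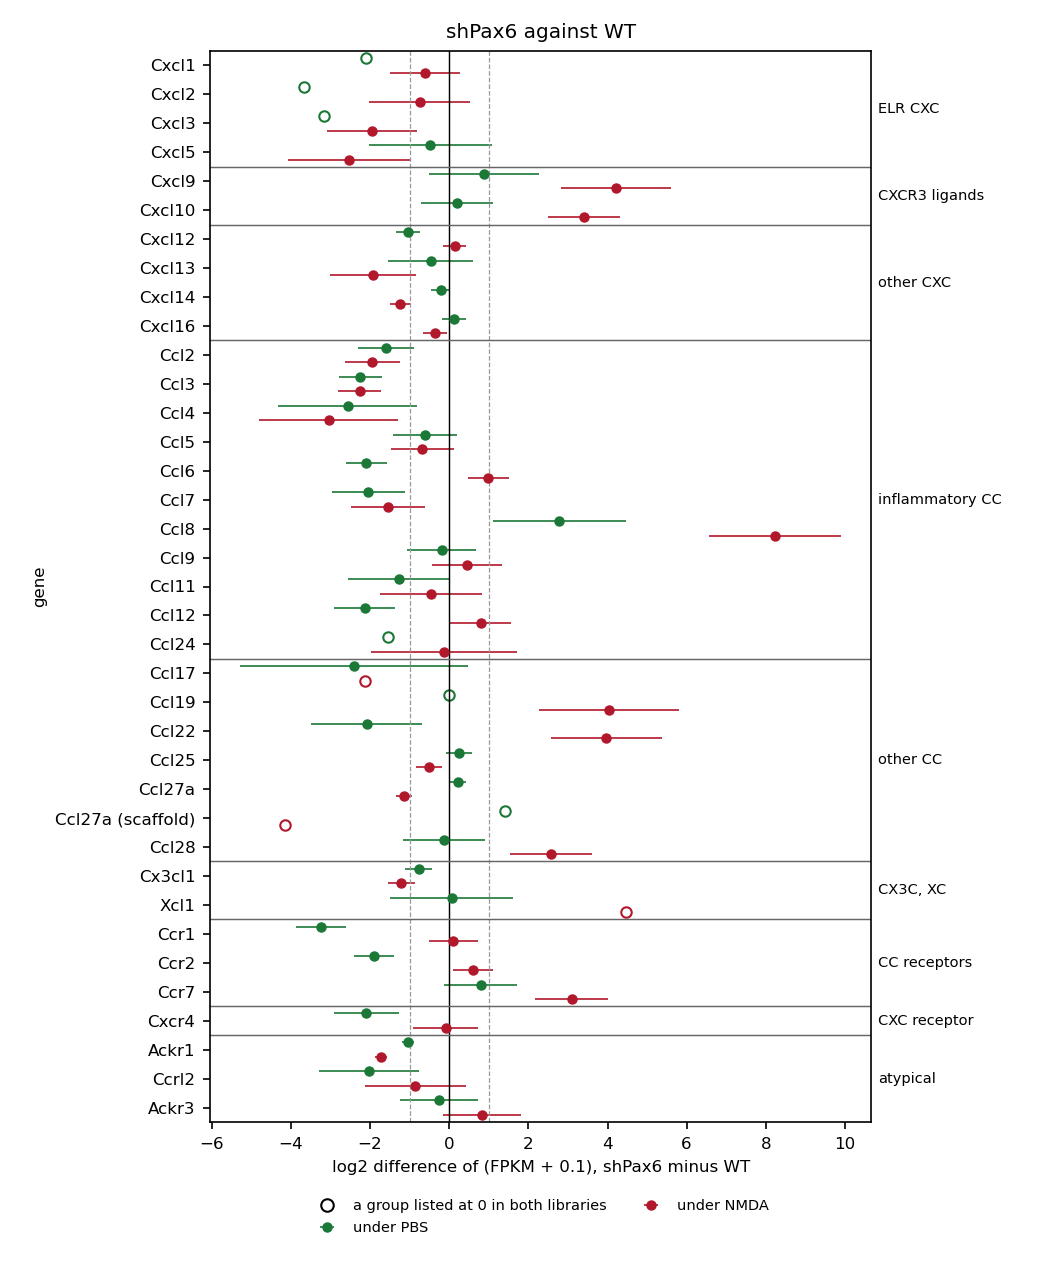
Log2 difference of shPax6 minus WT (horizontal axis, on log2(FPKM + 0.1)) for the 37 detected genes under PBS (green) and under NMDA (red), with 95% intervals from limma and open circles for genes with a group listed at 0. Ccr1, Ccr2, Cxcr4, Ccl6 and Ccl12 lay to the left of 0 under PBS, and Ccl8, Cxcl9, Cxcl10, Ccl19, Ccl22, Ccl28 and Ccr7 lay to the right of 0 under NMDA. Of the latter, Cxcl9, Ccl19 and Ccl28 were detected in the shPax6 NMDA group alone.

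Under NMDA, single members differed between shPax6 and WT retinas in both directions. Of the 37 members 8 were higher and 12 lower in shPax6, where 21.4% and 14.6% of all tested genes were. The count of higher members was thus near the share of all tested genes. The 8 were Ccl8, Xcl1, Cxcl9, Ccl19, Ccl22, Cxcl10, Ccr7 and Ccl28. Of these, Xcl1, Cxcl9, Ccl19 and Ccl28 were detected in the shPax6 NMDA group alone, and among the lower members Cxcl5 and the scaffold copy of Ccl27a in the WT NMDA group alone, so that these differences were built into their detection. Of the other 31 members 4 were higher and 10 lower, so the share higher in shPax6 was not above that of all tested genes. The log2 difference was 8.23 ± 0.74 for Ccl8 (adjusted p = 1.33e-05), 3.40 ± 0.40 for Cxcl10 (adjusted p = 7.6e-05) and 4.22 ± 0.62 for Cxcl9 (adjusted p = 0.000303). Xcl1 was listed at 0 in WT under NMDA, so only its adjusted p is given (0.000404).

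The 12 lower members included 4 of 11 inflammatory CC ligands and 2 of 4 neutrophil-attracting CXC ligands, while Cxcl1, Cxcl2, Ccl6 and Ccl12 were not called (−0.62, −0.75, 0.99 and 0.80). Ccr1, Ccr2, Cxcr4 and Cxcl12 were not called either. Their mean FPKM under NMDA was 4.85, 4.305, 4.965 and 17.595 in shPax6 and 4.63, 2.805, 5.255 and 15.98 in WT. Ccl2 was at 31.40 and 37.63 FPKM in shPax6 and at 138.26 and 126.01 FPKM in WT (−1.94 ± 0.31, adjusted p = 0.000521). Ccl3 and Ccl4 had log2 differences of −2.26 ± 0.24 and −3.04 ± 0.78 (adjusted p = 3.88e-05 and 0.00764), and Cxcl3 of −1.95 ± 0.50 (adjusted p = 0.00811). Ccl7 (−1.54 ± 0.41, adjusted p = 0.00942) and Cxcl5 (−2.53 ± 0.69, adjusted p = 0.0103) lost their calls without the first shPax6 NMDA library (adjusted p = 0.0782 and 0.0515), and Cxcl13 (−1.93 ± 0.48, adjusted p = 0.00649) without the second WT NMDA library (adjusted p = 0.0511). Cx3cl1, Cxcl14, Ackr1 and both Ccl27a IDs made up the rest. Neutrophil markers were lower in shPax6 under NMDA in 8 of 9 cases and lymphocyte and NK markers higher in 4 of 5. After correction for gene length 10 members were higher and 8 lower in shPax6, with Ccl4, Ccl7 and Cxcl3 no longer called, and on TPM 12 were higher and 7 lower.

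JNK3 KO and WT retinas differed in few members under PBS and in many under NMDA. Under PBS, 1 of the 37 members was higher in JNK3 KO and 1 lower, where 0.13% and 0.118% of all tested genes were. Cxcl10 was at 6.28 and 6.27 FPKM in WT against 2.15 and 0.75 FPKM in JNK3 KO (−2.21 ± 0.40, adjusted p = 0.0383), and Cxcl1 was at 0.43 and 0.25 FPKM in WT against 1.85 and 1.43 FPKM in JNK3 KO (2.00 ± 0.39, adjusted p = 0.0484). The libraries of the 2 genotypes did not overlap for either gene, and either call was lost without most single libraries, 9 of 12 for Cxcl10 (adjusted p 0.0585 to 0.279) and 10 of 12 for Cxcl1 (0.0511 to 0.286), and in the fit with a replicate block, where 0 members were called. At an unadjusted p under 0.05, 4 members were called, where 1.56% of all tested genes were.

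Under NMDA, 21 members were lower in JNK3 KO than in WT and 0 were higher, where 14.8% and 19.9% of all tested genes were. The median log2 difference was −1.61 for the members and 0.07 for all genes. Of the 21, the scaffold copy of Ccl27a was detected in the WT NMDA group alone, so that its difference was built in. Leaving aside the 2 members detected in that group alone, 20 of 35 were lower and 0 higher. The 21 comprised 9 of 11 inflammatory CC ligands, 3 of 4 neutrophil-attracting CXC ligands, Cxcl10, Cxcl16, both Ccl27a IDs, Ccr1, Ccr7, Cxcr4, Ccrl2 and Ackr1. Cxcl2 had 36.01 and 36.87 FPKM in WT and 0.24 and 0.07 FPKM in JNK3 KO (−7.25 ± 0.57, adjusted p = 5.35e-06), and Cxcl3 had 19.60 and 18.61 and 0.23 and 0 FPKM (−6.72 ± 0.50, adjusted p = 4.05e-06). Ccl5 had 47.17 and 46.37 FPKM in WT and 2.97 and 1.29 FPKM in JNK3 KO (−4.50 ± 0.35, adjusted p = 5.31e-06), and Ccl2 had 138.26 and 126.01 and 7.03 and 8.41 FPKM (−4.08 ± 0.31, adjusted p = 4.35e-06). No JNK3 KO library reached a WT library for these 4 genes. After correction for gene length 10 members were lower and 2 higher. The calls of Ccl11, Ccr7 and Cxcr4 were lost without the first WT or the second JNK3 KO NMDA library (adjusted p 0.0633 to 0.126), that of Ccl24 without any of 8 libraries (0.0507 to 0.155), that of Ackr1 without the first WT or first JNK3 KO NMDA library (log2 difference −0.96 to −0.94) and that of the scaffold copy of Ccl27a without the second WT NMDA library (0.0663). Neutrophil markers were lower in JNK3 KO in 8 of 9 cases, and their part was not tested.

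Members that lie side by side in the genome moved together in some loci and apart in others. With detected members less than 300 kb apart taken as neighbours (GRCm38), 5 lay within 81.2 kb on chromosome 11 (82035571 to 82116799: Ccl2, Ccl7, Ccl11, Ccl12 and Ccl8), of which 3 rose in WT and 5 in shPax6. Another run of 5 on chromosome 11 (83525778 to 83664683: Ccl5, Ccl9, Ccl6, Ccl3 and Ccl4) held 4 that rose in WT and 5 in shPax6. In JNK3 KO, Ccl12 of the first run and Ccl5 of the second fell, while Ccl6 rose. On chromosome 5, Cxcl5, Cxcl3, Cxcl1 and Cxcl2 (90759360 to 90905938) held 3 that rose in WT and 3 in shPax6. Cxcl9 and Cxcl10 (92321347 to 92348889) both rose in shPax6, where the rise of Cxcl9 was built into its detection. Of all tested genes 14.2% rose in WT and 9.05% in shPax6, and in JNK3 KO 0.785% rose and 1.91% fell. The receptor genes Ccr1 and Ccr2 on chromosome 9 (123962124 to 124113557) both rose in shPax6 and both fell in JNK3 KO. On chromosome 8 (94745590 to 94812036), Ccl22 rose in shPax6 and its neighbour Cx3cl1 fell, and Ccl17, a ligand of the same receptor as Ccl22, was at or below 0.39 FPKM in the shPax6 libraries and was not called (adjusted p = 0.539). Members of a locus lie side by side, so neighbours are not taken as independent observations.

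The remaining members were called in no NMDA response: Ackr1, Ackr3, Ccl17, Ccl25 and Cxcl5. Ackr3, which removes Cxcl12, ranged from 0.53 to 1.58 FPKM over the 12 libraries, and Ccl25, a ligand of Ccr9, from 6.33 to 9.93 FPKM. Ackr1, which binds many chemokines on vessels and erythrocytes, was at 110.03 and 99.44 FPKM in WT under NMDA and at 30.84 and 32.28 FPKM in shPax6 under NMDA (−1.73 ± 0.07, adjusted p = 1.33e-07), with the overlap with Cadm3 given above. Erythrocyte markers were lower beside it in 4 of 5 cases, with sums of 126.02 and 120.04 FPKM in shPax6 and of 613.44 and 649.96 FPKM in WT under NMDA, and their part was not tested. Across the 10 comparisons 34 of the 37 detected members were called at least once, where 59.1% of all tested genes were.

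Genes up- and downstream of the family showed the following counts, beside all tested genes, of which 14.2% rose and 21.5% fell in WT, 9.05% and 5.27% in shPax6 and 0.785% and 1.91% in JNK3 KO. Among 11 detected cytokines that induce chemokines, 7 rose in WT, 7 in shPax6 and 0 in JNK3 KO, where 4 fell. Il1b, a central inducer, was at 15.94 and 18.58 FPKM under PBS and at 89.65 and 82.05 FPKM under NMDA in WT, at 1.3 and 0.54 and at 4.74 and 7.63 FPKM in shPax6, and at 14.94 and 12.96 and at 0.86 and 0.67 FPKM in JNK3 KO. Its levels under NMDA in JNK3 KO lay below all other WT and JNK3 KO libraries. Among 13 detected NF-kB and interferon regulators 6 rose and 1 fell in WT, 7 rose in shPax6 and none was called in JNK3 KO. Relb, an NF-kB subunit, was at 2.56 and 3.10 FPKM and at 11.35 and 12.15 FPKM in WT, and Nfkbia, an inhibitor that NF-kB itself induces, at 23.20 and 20.49 and at 59.45 and 49.67 FPKM. Among 32 detected genes of chemokine receptor signalling 2 rose and 4 fell in WT, 10 rose and 2 fell in shPax6, and 0 rose and 4 fell in JNK3 KO. Rgs1, a brake on Gi signalling in leukocytes, rose from 0 and 0.09 FPKM to 2.60 and 2.35 FPKM in shPax6. Pf4, a platelet and macrophage chemokine whose name falls outside the rule, was at 0 and 0.43 FPKM under PBS and at 41.37 and 28.77 FPKM under NMDA in shPax6, and at 1.00 and 0.69 and at 19.23 and 4.09 FPKM in WT.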

How the data were processed

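Mouse retinas were profiled by paired-end RNA-seq of poly(A) RNA (TruSeq, 2x101), and whether the libraries keep strand is not stated. Per the labels and the study's methods, the authors aligned reads with STAR 2.7.1a to GRCm38.p6 and quantified genes with RSEM 1.3.3, and the deposited table holds FPKM per gene and library, with no counts, so that no count test and no interval from depth could be made. The text of the study gives both subretinal and intravitreal delivery for the vector.

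Members were found by gene name, and genes, lists and motifs were chosen with earlier results of these data known, so that a list is described by its counts and median beside those of all genes tested. Some receptor genes that the rule would take are not reported here. Every detected member could be named, with its values where it was called. Genes above 0.5 FPKM in both libraries of any group entered 1 limma fit (version 3.58.1, R 4.3.3, intensity trend) of 6 group means over 12 libraries on log2(FPKM + 0.1), with 6 residual degrees of freedom, 10 comparisons and Benjamini-Hochberg adjustment over genes within each. The scripts were tested on simulated data. A log2 difference on this scale understates the change of low genes, and an exact 0 is given as listed at 0. Alternatives were other pseudocounts (1 and 0.5), a group mean above 1 FPKM, no filter, TPM, quantile and 75th-percentile scaling, a correction for gene length by a local fit (span 0.3), the spread of the compared groups alone, no trend, a replicate block, unadjusted p-values and each library left out. Replicate numbers do not pair the libraries: over 15 pairs of groups the deviations of same-numbered libraries correlated by −0.093 to 0.069. Gene positions and lengths came from GENCODE M21, which held 99.53% of the gene IDs. Protein sequences were not used here.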

Additional observations from a re-analysis of the deposited data

Results flagged for a closer look

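The results below are those where the NMDA response of a gene differed between 2 backgrounds by the test of the difference itself in limma, given as the difference of log2 responses. Genes with a group listed at 0 are given by adjusted p alone. Cxcl9, Ccl28, Xcl1 and Ccl19 were detected in the shPax6 NMDA group alone, and the scaffold copy of Ccl27a in the WT NMDA group alone. The differences listed below for these genes were therefore built into their detection.

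For WT minus shPax6, the receptors with a called difference were Ccr1 (−3.34), Ccr2 (−2.50), Ccr7 (−2.30) and Cxcr4 (−2.0). The CC ligands were Ccl22 (−6.04), Ccl8 (−5.45), Ccl6 (−3.08), Ccl12 (−2.93), Ccl28 (−2.70) and Ccl27a (1.36). The CXC ligands were Cxcl9 (−3.34), Cxcl10 (−3.22), Cxcl12 (−1.17) and Cxcl14 (1.02). With a group listed at 0, the adjusted p was 0.00483 for Xcl1, 0.0139 for Ccl19, 0.0149 for Cxcl2 and 0.0136 for the scaffold copy of Ccl27a.

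For WT minus JNK3 KO, the receptors with a called difference were Cxcr4 (1.77), Ccr1 (1.95) and Ccrl2 (2.46). The CC ligands were Ccl12 (1.56), Ccl27a (2.04), Ccl3 (3.36), Ccl4 (3.42), Ccl7 (3.43), Ccl5 (4.02) and Ccl2 (4.32). The CXC ligands were Cxcl16 (2.66), Cxcl1 (4.69), Cxcl3 (6.00) and Cxcl2 (6.74). With a group listed at 0, the adjusted p was 0.00529 for the scaffold copy of Ccl27a.

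For shPax6 minus JNK3 KO, the receptors with a called difference were Ccr7 (3.09), Ccr2 (3.26), Ccrl2 (3.63), Cxcr4 (3.77) and Ccr1 (5.29). The CC ligands were Ccl28 (2.88), Ccl3 (3.34), Ccl7 (3.92), Ccl5 (3.95), Ccl2 (3.97), Ccl6 (4.07), Ccl12 (4.49) and Ccl22 (5.78). The CXC ligands were Cxcl12 (1.60), Cxcl16 (2.18) and Cxcl10 (2.87). With a group listed at 0, the adjusted p was 0.0156 for Cxcl9, 0.0161 for Ccl19, 0.00462 for Xcl1, 0.000141 for Cxcl1, 0.000246 for Cxcl3 and 9.26e-05 for Cxcl2.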

How the results depend on the processing

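Of 166 calls of single members, 87 were kept under every alternative that could be computed and without each library, and none turned its direction. Counts of called members moved by over 1.5 times in these cases. The shPax6 response went from 30 to 17 with the spread of its own libraries, and the JNK3 KO response from 8 to 4 with no filter on low values, to 15 with unadjusted p-values and to 5 without its second NMDA library. shPax6 against WT under PBS went from 15 to 9 with no filter and to 7 with the spread of the groups compared. JNK3 KO against WT under PBS went from 2 to 1 with a group mean above 1 FPKM, TPM, 75th-percentile scaling or the length correction, to 0 with no filter, the spread of the groups compared, no intensity trend or the replicate block, to 0 or 1 without any single library, and to 4 with unadjusted p-values. JNK3 KO against WT under NMDA went from 21 to 12 with the length correction. The members' median log2 difference in the WT response of 0.54 was 0.036 on TPM, 0.123 with the length correction, 0.838 with quantile normalization and 0.368 with a pseudocount of 1. In the shPax6 response it went from 2.38 to 1.325 and 1.723 with a pseudocount of 1 and 0.5, 1.905 with quantile normalization, 2.181 with the length correction and 2.670 or 2.628 without its first PBS or first NMDA library, and in JNK3 KO from −0.70 to −0.316 and −0.496 with a pseudocount of 1 and 0.5, −0.522 with quantile normalization and −0.972 without the second PBS library. The cause was not tested.

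With a replicate block the counts were 15, 30 and 8 for the responses in WT, shPax6 and JNK3 KO, 15 and 20 for shPax6 against WT under PBS and NMDA, 0 and 21 for JNK3 KO against WT, and 18, 15 and 23 for the differences of responses. Same-numbered libraries did not deviate together, so the numbers are not taken as pairs. Leaving out each library gave 13 to 16, 27 to 29 and 5 to 9 members for the 3 responses, 11 to 16 and 18 to 21 for shPax6 against WT, 0 to 1 and 17 to 22 for JNK3 KO against WT, and 17 to 19, 11 to 16 and 19 to 24 for the differences, where a lone library left in a group is assumed to vary like the other groups. With 2 libraries a group and no counts, the precision of low values is unknown.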
